A study of Mus musculus with 6 samples.

Results

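The genes analysed here were the Fc gamma receptors and their close relatives, 7 of the 55401 genes in the count matrix. They were chosen by symbol: the inhibitory receptor Fcgr2b, the activating receptors Fcgr1, Fcgr3 and Fcgr4, the signalling chain Fcer1g, the neonatal Fc receptor Fcgrt, and Fcrls, an Fc receptor-like gene. RNA-seq was performed on microglia of MRL/lpr and MRL/mpj mice, with 3 libraries per strain. Both strains were untreated and 6 weeks old. MRL/lpr mice carry the Fas lpr mutation on the MRL background and develop a lupus-like disease with circulating autoantibodies, and MRL/mpj mice, of the same background without that mutation, were the controls. Every cell carries the mutation, so the design does not restrict it to microglia. According to the study's methods, perfused brains were dissociated, spun through Percoll and selected for CD11b, the product of Itgam, a selection that also takes in other myeloid cells and NK cells. How many animals entered a library was not given in the sources used here, so the p-values measure only the spread between these samples.

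Fc gamma receptors bind the constant part of IgG and couple antibody-coated particles to phagocytes. Activating receptors signal through an immunoreceptor tyrosine-based activation motif (ITAM) on the Fc receptor gamma chain Fcer1g, which recruits the kinase Syk, whereas Fcgr2b carries an inhibitory motif (ITIM) that recruits the phosphatase Inpp5d (SHIP1). Microglia, the resident macrophages of the brain, express the activating receptors, Fcgr2b and Fcer1g. Fcgrt pairs with beta-2-microglobulin and returns IgG from endosomes to the cell surface. Fcrls belongs to the same family by sequence and is widely used as a marker of microglia.

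The known ITIM of Fcgr2b and ITAM of Fcer1g are shown because they are what makes these genes inhibitory and activating in the comparison. The stretches were read from GENCODE M21 transcripts on GRCm38. In transcript Fcgr2b-201, of 340 codons, the printed stretch with the ITIM runs from codon 313 to 326. In Fcer1g-201, of 86 codons, the printed stretch with the ITAM runs from codon 61 to 83. Each printed stretch holds the motif and a few flanking codons on either side, so the motif itself is shorter. The ITIM pattern is short, and the same search also matched Fcgr1, Fcgr4, Fcer1g and Fcgrt, so a match alone does not make a receptor inhibitory. Capitals mark the tyrosine codons, 1 in the ITIM and 2 in the ITAM.
Fcgr2b ITIM: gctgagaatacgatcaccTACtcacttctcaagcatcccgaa
Fcer1g ITAM: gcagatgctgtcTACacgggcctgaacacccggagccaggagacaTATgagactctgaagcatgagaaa

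Of the 7 genes, 3 were higher in MRL/lpr microglia, Fcgr2b, Fcgr1 and Fcgr4, and 1 was lower, Fcrls. Fcgr3, Fcer1g and Fcgrt did not pass the test. All 7 passed the filter on low counts. A gene is called here at an adjusted p under 0.05 from edgeR's quasi-likelihood test over 19554 genes, with Benjamini-Hochberg adjustment. In the same fit 11.1% of all tested genes were higher in MRL/lpr and 9.06% were lower. Together 20.2% of tested genes were called in either direction. These shares also stand beside every count of called list genes given below. The balance of directions depended on the scaling, since 2178 genes were higher and 1772 lower with TMM, and 1634 higher and 2790 lower with library size alone, where the same 4 members were called. When a change of 1 or more on the log2 scale was also required, Fcgr2b and Fcrls were called, against 4.67% of genes higher, 3.66% lower and 8.34% in either direction. Counts scaled to the effective library size (CPM) did not overlap between strains for 5 of the 7 genes, as for 39% of all tested genes. The fitted increase of the inhibitory gene, 1.35 on the log2 scale, was larger than those of the activating genes Fcgr1 (0.46) and Fcgr4 (0.82), a difference that the ratios inside each library test.

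**Figure D1:**
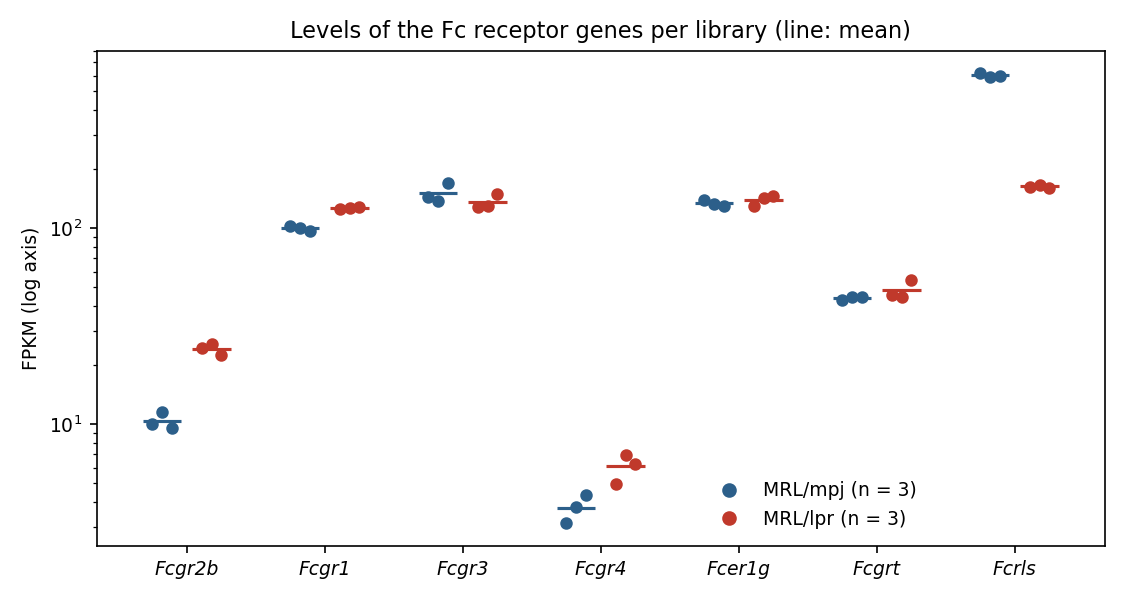
Level of each gene in every library, in FPKM as deposited (fragments scaled by gene length and library depth), on a log axis. Points are libraries, 3 per strain, and lines are strain means. The red MRL/lpr points of Fcgr2b, Fcgr1 and Fcgr4 lie above the blue MRL/mpj points, those of Fcrls lie far below, and those of Fcgr3, Fcer1g and Fcgrt overlap.

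**Figure D2:**
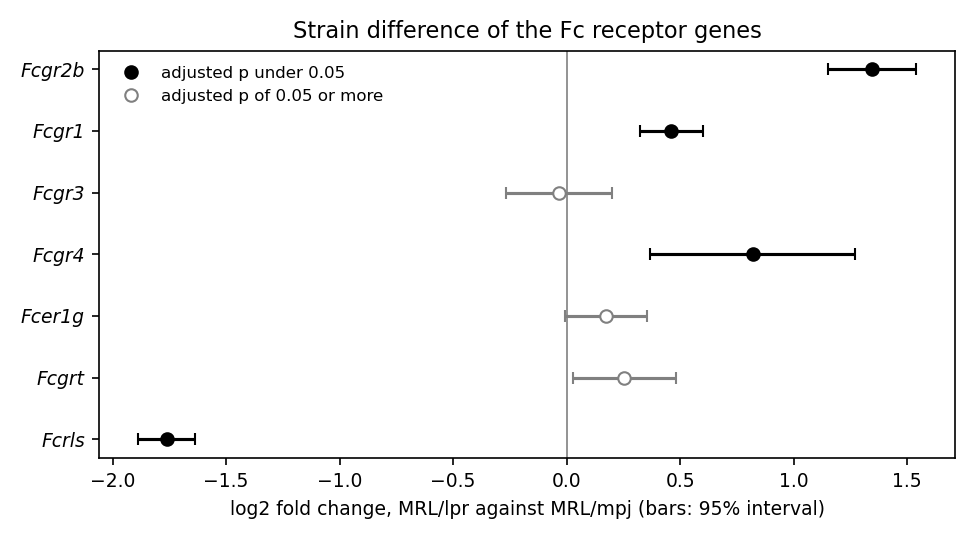
Log2 fold change of each gene, MRL/lpr against MRL/mpj, with 95% intervals from edgeR (3 libraries per strain). Filled points passed an adjusted p under 0.05. Fcgr2b at 1.35 and Fcrls at -1.76 stand on opposite sides, and the intervals of Fcgr3 and Fcer1g include 0.

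Fcgr2b, the only inhibitory Fc gamma receptor of the mouse, lies on chromosome 1 (chr1:170958617-170976547, minus strand, GRCm38). Its count was 7624, 8038 and 6596 in libraries of MRL/lpr mice and 3207, 3566 and 3089 in those of MRL/mpj mice. Every MRL/lpr library stood above every MRL/mpj library. The mean level was 164 ± 6.59 CPM (SD, n = 3) against 64.4 ± 6.22 CPM (SD, n = 3), a 2.54-fold difference. The log2 fold change was 1.35 (standard error 0.09, edgeR adjusted p = 6.87e-06). B cells also express Fcgr2b as their main Fc receptor. Cd79a, a chain of the B cell receptor complex, had 76, 63 and 56 counts in MRL/lpr and 12, 23 and 39 counts in MRL/mpj (edgeR adjusted p = 0.0516). Ebf1, an early B cell factor, was the only one of 7 tested B cell markers that passed, and it was lower (-0.45, edgeR adjusted p = 0.00922). Cd79b had 296, 273 and 326 counts against 413, 444 and 396 counts. The summed level of all 10 listed B cell markers was 32.0 to 33.5 CPM in MRL/lpr and 36.6 to 38.7 CPM in MRL/mpj, and none was at 0 in every library. The part of B cell RNA in the Fcgr2b difference was not tested. In such bulk samples more cells of a type and more RNA per cell cannot be told apart.

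Fcgr1, the high-affinity IgG receptor, lies on chromosome 3 (chr3:96282909-96293969, minus strand). It had 17393, 17606 and 16854 counts in MRL/lpr and 14612, 13985 and 14019 counts in MRL/mpj. The libraries of the strains did not overlap, and the spread within each strain was small. The mean level was 382 ± 18.2 CPM (SD, n = 3) against 278 ± 7.62 CPM (SD, n = 3), with a log2 fold change of 0.46 (standard error 0.06, edgeR adjusted p = 0.000699).

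Fcgr4, an activating receptor of intermediate affinity that binds IgG2a, IgG2b and IgG2c, lies on chromosome 1 (chr1:171018920-171029761, plus strand). It was the least abundant member, with 337, 474 and 400 counts in MRL/lpr and 217, 255 and 305 counts in MRL/mpj. The lowest MRL/lpr library was close to the highest MRL/mpj library. The mean level was 8.94 ± 1.55 CPM (SD, n = 3) against 5.06 ± 0.820 CPM (SD, n = 3), with a log2 fold change of 0.82 (standard error 0.20, edgeR adjusted p = 0.0181). The call depended on single libraries. It was lost without MRL/lpr replicate 2 (0.72, edgeR adjusted p = 0.0702), without MRL/mpj replicate 1 (0.70, edgeR adjusted p = 0.0740) and without MRL/mpj replicate 2 (0.82, edgeR adjusted p = 0.0612). Neutrophils and monocytes are known to carry Fcgr4. The 8 listed neutrophil markers summed to 576 to 657 CPM in MRL/lpr and 450 to 510 CPM in MRL/mpj, with 3 of 8 higher (1 of 8 without MRL/mpj replicate 3), the rest not passing and none at 0 in every library. The 8 monocyte markers summed to 596 to 681 CPM and 589 to 611 CPM, with 3 of 8 higher, 1 lower and none at 0 in every library. The part of these cells in the Fcgr4 difference was not tested.

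Fcgr3, the low-affinity activating receptor, lies on chromosome 1 (chr1:171051174-171064935, minus strand). It had 11988, 12106 and 13110 counts in MRL/lpr and 13883, 12882 and 16478 counts in MRL/mpj. After scaling, the libraries of the strains overlapped, and replicate 3 was the highest library in each strain. The log2 fold change was -0.03, with a 95% interval from -0.27 to 0.20 (edgeR adjusted p = 0.877). The direction of this small difference changed when MRL/lpr replicate 1, MRL/lpr replicate 2 or MRL/mpj replicate 3 was left out.

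Fcer1g, the gamma chain, lies on chromosome 1 (chr1:171229572-171234365, minus strand). It had 6075, 6710 and 6467 counts in MRL/lpr and 6705, 6262 and 6348 counts in MRL/mpj, and the strains overlapped. The log2 fold change was 0.18, with a 95% interval from -0.01 to 0.36 (edgeR adjusted p = 0.170). A difference of the size seen for Fcgr2b lay outside this interval.

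Reads shared between family members were considered before the receptors were compared. Fcgr2b and Fcgr3 share a stretch of 129 identical bases, the longest between any members, and no stretch of 150 bases, the read length used for this check, occurs both in a member and in another annotated gene. Gm38204, a gene antisense to Fcgr2b, had 0 counts in 5 libraries and 3 counts in the other, MRL/lpr replicate 3.

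The inhibitory gene was next compared with the activating genes inside each library, a ratio that does not depend on scaling between libraries. Counts were divided by exon length. Fcgr2b amounted to 9.48%, 9.81% and 7.92% of the sum of Fcgr1, Fcgr3 and Fcgr4 in the MRL/lpr libraries and to 4.01%, 4.73% and 3.52% in the MRL/mpj libraries. All MRL/lpr values exceeded all MRL/mpj values, with MRL/lpr replicate 3 the lowest of its strain. The log2 ratio was -3.47 ± 0.17 (SD, n = 3) in MRL/lpr and -4.62 ± 0.21 (SD, n = 3) in MRL/mpj. The difference was 1.15 on the log2 scale, or 2.23-fold, with an exact two-sided permutation p = 0.1, the smallest that 3 against 3 libraries allow.

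Each activating receptor was then taken alone. The log2 ratio of Fcgr2b to Fcgr3 differed by 1.38 between the strains, that to Fcgr1 by 0.89 and that to Fcgr4 by 0.53. All 3 had non-overlapping libraries and an exact two-sided permutation p = 0.1, also 0.1 after Benjamini-Hochberg adjustment over the 3, again the smallest possible. The ratio to Fcgr4 was the least separated. It was 4.91, 3.68 and 3.58 in the MRL/lpr libraries and 3.21, 3.03 and 2.197 in the MRL/mpj libraries. Its difference dropped to 0.39 without MRL/lpr replicate 1 and to 0.36 without MRL/mpj replicate 3.

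**Figure D3:**
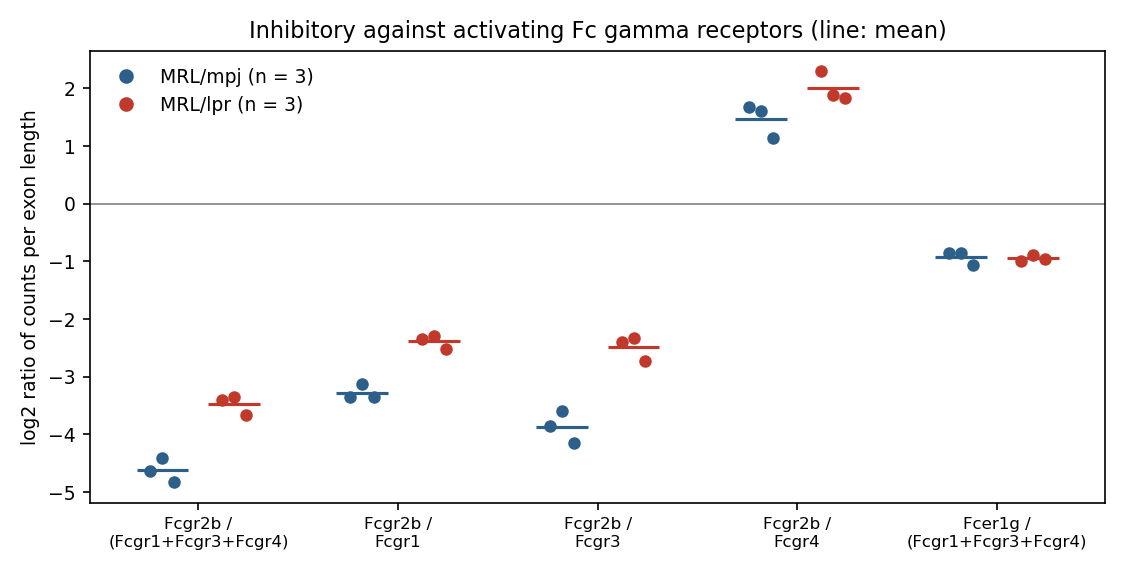
Log2 ratios inside each library, computed from counts per exon length. Points are libraries, 3 per strain, and lines are strain means. For the 4 ratios with Fcgr2b the MRL/lpr points lie above the MRL/mpj points, by 0.53 to 1.38 on the log2 scale, and for Fcer1g against the activating receptors the strains overlap.

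The gamma chain was compared with the receptors it serves in the same way. Fcer1g amounted to 50.04%, 54.3% and 51.5% of the summed activating receptors in MRL/lpr and to 55.5%, 55.0% and 47.9% in MRL/mpj. The strains overlapped, and the log2 ratio differed by -0.02 (exact two-sided permutation p = 0.8). This value depended on the receptors in the sum, since it was 0.18 with Fcgr1 left out and -0.30 with Fcgr3 left out.

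By share of the summed FPKM of the 4 Fc gamma receptors, Fcgr3 made up 46.3% ± 2.05 in MRL/lpr and 56.9% ± 3.23 in MRL/mpj (SD, n = 3). Fcgr1 made up 43.3% ± 1.18 and 37.8% ± 2.84, Fcgr2b 8.31% ± 0.851 and 3.92% ± 0.560, and Fcgr4 2.08% ± 0.333 and 1.41% ± 0.185. The summed FPKM was 292 ± 12.7 in MRL/lpr and 265 ± 13.9 in MRL/mpj (SD, n = 3). The share of Fcgr3 was lower in every MRL/lpr library than in any MRL/mpj library, and the shares of Fcgr1, Fcgr2b and Fcgr4 were higher. FPKM scale with library totals, which moved the median log2 difference of all genes to -0.12.

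Levels of different genes were compared per length, in FPKM. In MRL/mpj the order was Fcrls (mean 601), Fcgr3 (151), Fcer1g (134), Fcgr1 (99.8), Fcgrt (44.0), Fcgr2b (10.3) and Fcgr4 (3.74). Fcgr3 and Fcer1g overlapped between libraries, and no other neighbours in this order did. In MRL/lpr the order was Fcrls (163), Fcer1g (139), Fcgr3 (135), Fcgr1 (126), Fcgrt (48.2), Fcgr2b (24.2) and Fcgr4 (6.08). Fcer1g overlapped with Fcgr3, and Fcgr3 overlapped with Fcgr1. Fcgr2b therefore stayed below Fcgr1 and Fcgr3 in both strains. Its exon length counts the union of all its transcripts, which lowers its level per length but leaves the comparison of strains unaffected.

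Fcrls lies on chromosome 3 (chr3:87250758-87263738, minus strand) and showed the largest change among the members, in the opposite direction to Fcgr2b, Fcgr1 and Fcgr4. It had 20369, 20967 and 19037 counts in MRL/lpr and 79508, 73973 and 77842 counts in MRL/mpj. The highest MRL/lpr library was far below the lowest MRL/mpj library. The mean level was 445 ± 11.1 CPM (SD, n = 3) against 1508 ± 35.2 CPM (SD, n = 3), 3.39-fold lower in MRL/lpr. The log2 fold change was -1.76 (standard error 0.06, edgeR adjusted p = 1.61e-07). Since Fcrls marks microglia, the other markers of that cell type bear on this value. Of 14 listed microglial markers, 3 were lower, 11 did not pass and none was at 0 in every library. Without MRL/lpr replicate 3, 6 of them were lower. Gpr34 and P2ry13 were among the lower genes, with log2 fold changes of -0.48 and -0.29 (edgeR adjusted p = 0.000607 and 0.00463). The 14 markers summed to 29033, 30933 and 33227 CPM in MRL/lpr and to 32228, 33142 and 32281 CPM in MRL/mpj. The strains overlapped only through MRL/lpr replicate 3, the library with the high share of 1 gene described at the end. With library size alone the sums did not overlap, at 28388 to 30532 CPM in MRL/lpr and 33528 to 34644 CPM in MRL/mpj. That scaling also moved the median log2 fold change of all genes to -0.13. The marker Cx3cr1 raised the sum of MRL/lpr replicate 2, with 132706 counts there and 10645 and 10334 counts in MRL/lpr replicates 1 and 3. In MRL/mpj it had 28995, 27912 and 29349 counts. The part of the microglial share in the Fcrls difference was not tested.

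Fcgrt, the heavy chain of the neonatal Fc receptor, lies on chromosome 7 (chr7:45092990-45103851, minus strand). It had 5180, 5047 and 5801 counts in MRL/lpr and 4992, 5052 and 5223 counts in MRL/mpj. The strains differed little, with MRL/lpr replicate 3 the highest library. The log2 fold change was 0.25, with a 95% interval from 0.03 to 0.48 (edgeR adjusted p = 0.117). Its CPM did not overlap between strains after TMM scaling but overlapped after scaling by library size alone. Its partner beta-2-microglobulin, B2m, had 66603, 65246 and 54493 counts in MRL/lpr and 42677, 40568 and 40316 counts in MRL/mpj, with no overlap. The log2 fold change of B2m was 0.76 (standard error 0.06, edgeR adjusted p = 2.41e-05). B2m also pairs with every class I histocompatibility molecule. Of the 6 genes listed for FcRn recycling, 1 was higher, B2m, and 2 were lower, Rab11fip5 (-0.64) and the motor gene Myo5b (-1.93), with a list median of -0.02 against -0.01 over all genes tested.

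IgG is the ligand of these receptors, and transcripts of antibody constant regions were read from the same fit. All 9 tested constant region genes were higher in MRL/lpr, with a median log2 fold change of 4.30. In each fit that left out 1 library 8 of them were called, since the light chain gene Iglc2 (37, 31 and 31 counts against 0, 7 and 5) lost its call. When 10 counts were required in every library, 5 were left to test and all 5 passed. Ighg1 had 2934, 2654 and 2747 counts in MRL/lpr and 0, 16 and 7 counts in MRL/mpj. Ighg2c had 563, 593 and 391 counts and none in MRL/mpj, at least 193-fold higher against a floor of 3 counts per library. Ighg3 had 1135, 1304 and 1194 counts and 0, 0 and 15 counts. Ighg2b, with 524, 491 and 319 counts against 92, 100 and 95 counts, was the IgG class with most counts in MRL/mpj. The IgA gene Igha had 1400, 1764 and 1455 counts against 124, 67 and 73 counts, and Ighm changed by 0.37 on the log2 scale (edgeR adjusted p = 0.00184). Ighe had 0 counts in all libraries. The plasma cell genes Jchain (log2 fold change 3.66, edgeR adjusted p = 9.02e-06) and Mzb1 (25, 54 and 48 counts against 0 in MRL/mpj) were higher, the only 2 of 8 plasma cell markers that passed, and the list summed to 208 to 236 CPM against 189 to 198 CPM.

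Downstream of the activating receptors, 9 of 28 listed kinases, adaptors and effectors of ITAM signalling were higher in MRL/lpr, 2 were lower and 17 did not pass, with a median log2 fold change of 0.09. Over all tested genes 11.1% were higher and 9.06% lower, which also applies to the T cell and NK counts below. Syk, the kinase that docks on the ITAM, had 15137, 15227 and 13814 counts against 12283, 12793 and 13254 counts. Its log2 fold change was 0.38 (standard error 0.06, edgeR adjusted p = 0.00163). The largest increases were those of the adaptors Lat2 and Lat. Lat2 had 4306, 4188 and 3670 counts against 2133, 1563 and 1667 counts, a log2 fold change of 1.36 (edgeR adjusted p = 3.85e-05). Lat had 142, 125 and 88 counts against 42, 42 and 47 counts, a log2 fold change of 1.60 (edgeR adjusted p = 0.00477). Lat is the adaptor of T cells, and 6 of the 7 tested T cell markers were higher in MRL/lpr, summing to 16.8 to 24.6 CPM against 4.44 to 4.77 CPM over 8 listed genes, none at 0 in every library. NK markers, 4 of 7 higher, summed to 14.5 to 15.4 CPM against 4.10 to 5.25 CPM, none at 0 in every library. Their part in the Lat difference was not tested.

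Among the other ITAM genes that rose were Gab2 (0.50), the PI3-kinase subunit Pik3r1 (0.66), Prkcd (0.33), Rac2 (0.37) and Fyn (0.44), although the Fyn call was lost in 5 of 6 fits that left out 1 library, all but the one without MRL/mpj replicate 3, and the Rac2 call was lost in that one. The other ITAM adaptor of microglia, Tyrobp (DAP12), which serves Trem2, was lower, with 12391, 12628 and 12701 counts against 19223, 18628 and 16581 counts. Its log2 fold change was -0.35 (standard error 0.09, edgeR adjusted p = 0.0177), and the call was lost in 4 of 6 fits that left out 1 library, without MRL/lpr replicate 1 or 2 or MRL/mpj replicate 1 or 2. Plcg1 was also lower, by -0.36. Fcer1g and Tyrobp, the 2 ITAM adaptors, had intervals from -0.01 to 0.36 and from -0.54 to -0.16, which did not overlap.

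On the inhibitory side, 5 of 14 listed phosphatases and dampers were higher, 1 was lower and 8 did not pass, with a median log2 fold change of 0.27. Inpp5d, the phosphatase that binds the ITIM of Fcgr2b, had 52010, 48123 and 44649 counts against 48189, 46614 and 49856 counts. Its log2 fold change was 0.18, with a 95% interval from 0.05 to 0.30 (edgeR adjusted p = 0.0537). Ptpn6 (SHP-1), which serves many other ITIM receptors, differed by -0.11 (edgeR adjusted p = 0.321). The largest increases were those of Dok2 and Ptpn22. Dok2, an adaptor that restrains Ras, had 197, 156 and 175 counts against 74, 46 and 82 counts, a log2 fold change of 1.57 (edgeR adjusted p = 0.00423). Ptpn22, a phosphatase that restrains Src and Syk family kinases, had 222, 215 and 142 counts against 89, 66 and 89 counts, a log2 fold change of 1.41 (edgeR adjusted p = 0.00392). T cells express both, with the T cell marker levels given for Lat, and their part was not tested. Dok3 (0.65), Pag1 (0.50) and Inppl1 (0.45) were higher, the Inppl1 call being lost without replicate 2 or 3 of either strain, and Ubash3b (-0.59), a phosphatase acting on Syk, was lower. Median changes of the ITAM and ITIM lists stood beside -0.01 over all genes tested, and their counts beside 11.1% higher and 9.06% lower.

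**Figure D4:**
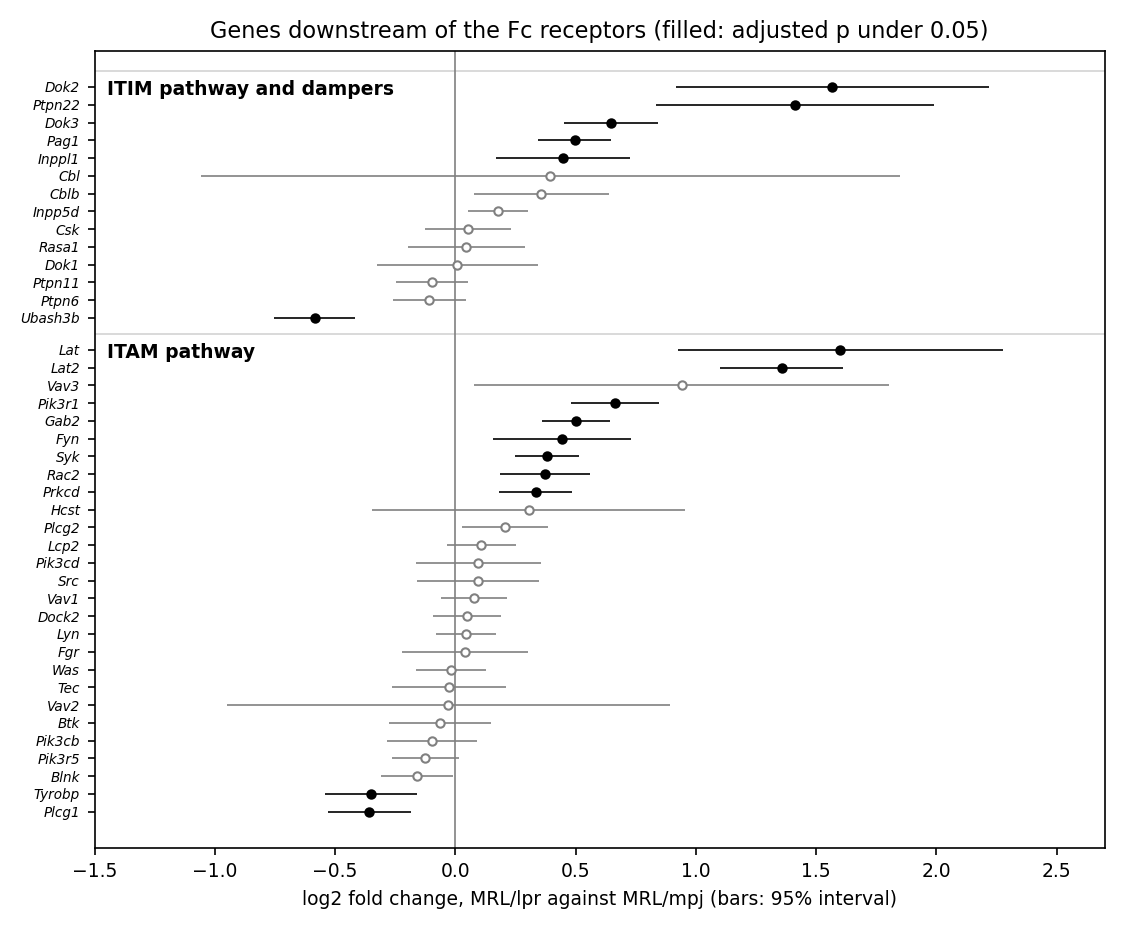
Log2 fold change of the listed genes downstream of the Fc receptors, MRL/lpr against MRL/mpj, with 95% intervals from edgeR (3 libraries per strain). Filled points passed an adjusted p under 0.05. Of the 27 ITAM genes drawn 8 were higher and 2 lower, and of the 14 ITIM genes 5 were higher and 1 lower. Over all tested genes 11.1% were higher and 9.06% lower.

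Among 12 other Fc receptor and Fcrl genes, only 3 had enough counts to be tested. Fcrl1, an Fc receptor-like gene known from B cells, was lower, with 98, 65 and 110 counts in MRL/lpr and 1475, 1545 and 1476 counts in MRL/mpj. Its log2 fold change was -3.85 (standard error 0.21, edgeR adjusted p = 3.24e-06). Among B cell markers Ebf1 was also lower and Cd79a did not pass, with the values given for Fcgr2b, and their part in the Fcrl1 difference was not tested. Fcrl5 had 12, 16 and 21 counts against 0, 4 and 0 counts (edgeR adjusted p = 0.0869). Trim21, the cytosolic antibody receptor, had a log2 fold change of 0.40 (edgeR adjusted p = 0.212). Fcer1a and Ms4a2, subunits of the IgE receptor, fell below the count filter. The mast cell and basophil markers summed to 15.3 to 22.5 CPM in MRL/lpr and 18.6 to 21.4 CPM in MRL/mpj, with 1 of 4 tested genes higher, Tpsb2 (15, 17 and 12 counts against 0 in MRL/mpj), and none at 0 in every library. The Tpsb2 call was lost in each fit that left out 1 library.

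Members on the same chromosome did not all change alike. Fcgr2b, Fcgr4, Fcgr3 and Fcer1g lie within 275.7 kb of chromosome 1, yet their log2 fold changes in this order were 1.35, 0.82, -0.03 and 0.18. Fcrls and Fcgr1 share chromosome 3 but lie 9043 kb apart, end to end. Around Fcrls, in a window of 250 kb on either side that was chosen after the values were seen, 6 genes were tested, of which 4 were lower and 2 did not pass. The 4 were Fcrls, Fcrl1, Cd5l and the adhesion gene Kirrel. The 2 that did not pass were Fcrl5, with a positive log2 fold change of 3.67, and the pseudogene Gm10705 (-0.01). Gm10705 is the neighbour of Fcrls on the side of lower coordinates, 42753 bases away. Cd5l encodes a macrophage scavenger-type protein and is the neighbour on the side of higher coordinates, 94143 bases from Fcrls. Cd5l had 0, 0 and 4 counts in MRL/lpr and 32, 44 and 29 counts in MRL/mpj (log2 fold change -4.39, edgeR adjusted p = 0.0266). Its call was lost in 5 of 6 fits that left out 1 library, all but the one without MRL/lpr replicate 3. Kirrel had 128, 139 and 114 counts against 267, 280 and 256 counts, a log2 fold change of -0.90 (edgeR adjusted p = 0.00986). Over all tested genes 9.06% were lower. Leaving out 1 library gave 3 lower genes in the Fcrls window, or 4 without MRL/lpr replicate 3. Fcrls itself, around which the window was drawn, is among them. Of the other 5 genes, 3 were lower in the main fit, and 2 or 3 when 1 library was left out. Around the chromosome 1 cluster, 31 genes were tested in a window set in the same way, of which 6 were higher and 2 lower, with a median log2 fold change of -0.04, beside 11.1% higher and 9.06% lower over all tested genes. Among the 6 were Fcgr2b and Fcgr4 themselves. Leaving out 1 library gave 3 to 5 higher and 1 to 3 lower, with 3 higher and 1 lower without MRL/lpr replicate 2, MRL/mpj replicate 1 or MRL/mpj replicate 2, and 1 lower without MRL/lpr replicate 1.

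**Figure D5:**
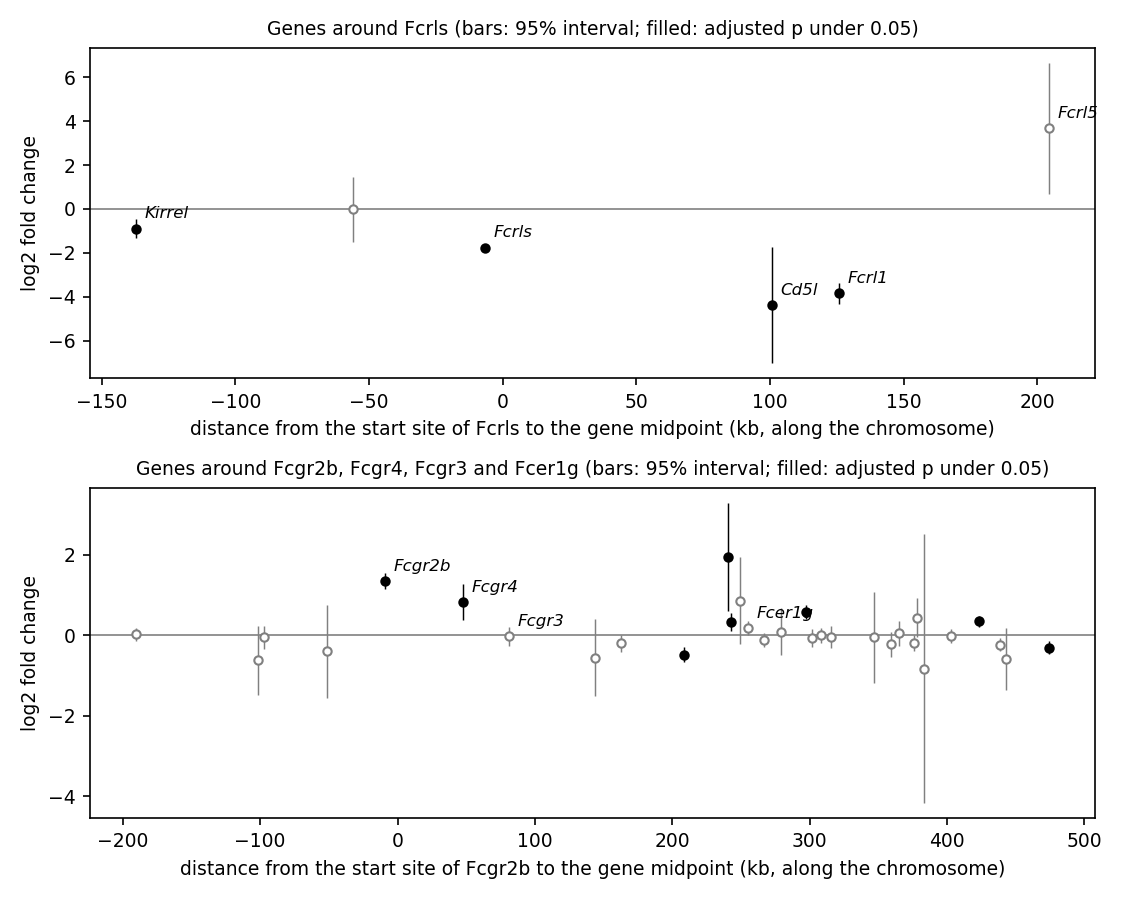
Log2 fold change, MRL/lpr against MRL/mpj, of the tested genes around Fcrls (top) and around the chromosome 1 receptor cluster (bottom), against distance in kb along the chromosome. Bars are 95% intervals from edgeR, and filled points passed an adjusted p under 0.05. Around Fcrls 4 of 6 genes were lower, Fcrls among them. Around the cluster 6 of 31 were higher, Fcgr2b and Fcgr4 among them, and 2 lower. Over all tested genes 11.1% were higher and 9.06% lower.

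Of the genes directly next to the other members, Rcn3, 769 bases from Fcgrt, was lower (-1.42, edgeR adjusted p = 0.000514), and so was the non-coding gene Gm42743, 3908 bases from Fcgr1 (-3.71, edgeR adjusted p = 0.00177). The remaining neighbours that were not members did not pass.

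Promoter sequence was examined for letters recognised by PU.1, the macrophage lineage factor, and by the interferon-activated factors of the STAT and IRF families, since Fcgr1 and Fcgr4 are known interferon-responsive genes. RefSeq windows on GRCm38.p6, from 250 bases before to 50 bases after the start site, held all 7 members, Fcgr3 with 2 start sites. The letters searched on both strands were GAGGAA (PU.1 core), TTCNNNGAA (GAS) and the ISRE letters, TTTC repeated after a gap of any 2 bases, none of which overlapped another in a printed window. Of 32851 promoters, 28.3% held the PU.1 core, 8.30% the GAS letters and 3.44% the ISRE letters. The 4 members that passed the test are shown, with matches in capitals on the strand of the gene.
Fcgr1 (chr3:96293920-96294219, minus strand): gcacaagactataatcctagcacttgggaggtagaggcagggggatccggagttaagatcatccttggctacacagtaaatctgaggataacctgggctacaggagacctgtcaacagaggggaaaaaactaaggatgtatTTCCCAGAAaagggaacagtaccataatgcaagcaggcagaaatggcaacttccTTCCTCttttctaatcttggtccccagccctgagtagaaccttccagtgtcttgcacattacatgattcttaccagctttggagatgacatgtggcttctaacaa
Fcgr4 (chr1:171018676-171018975, plus strand): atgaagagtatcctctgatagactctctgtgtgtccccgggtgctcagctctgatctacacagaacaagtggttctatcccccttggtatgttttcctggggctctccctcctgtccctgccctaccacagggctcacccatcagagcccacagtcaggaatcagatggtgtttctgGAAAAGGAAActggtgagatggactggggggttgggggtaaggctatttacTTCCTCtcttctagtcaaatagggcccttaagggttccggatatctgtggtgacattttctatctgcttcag
Fcgr2b (chr1:170976022-170976321, minus strand): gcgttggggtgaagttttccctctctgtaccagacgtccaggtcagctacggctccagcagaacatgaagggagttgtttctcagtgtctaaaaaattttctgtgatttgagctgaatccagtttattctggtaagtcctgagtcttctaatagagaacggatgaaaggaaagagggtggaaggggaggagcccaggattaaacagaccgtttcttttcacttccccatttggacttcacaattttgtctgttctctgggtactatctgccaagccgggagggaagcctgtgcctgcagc
Fcrls (chr3:87263475-87263774, minus strand): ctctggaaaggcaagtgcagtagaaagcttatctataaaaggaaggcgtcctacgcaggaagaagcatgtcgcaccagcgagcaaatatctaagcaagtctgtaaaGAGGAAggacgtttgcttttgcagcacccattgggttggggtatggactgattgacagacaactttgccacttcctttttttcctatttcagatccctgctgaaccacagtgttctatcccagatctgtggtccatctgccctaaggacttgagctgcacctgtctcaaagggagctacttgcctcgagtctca

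The Fcgr1 window held a GAS match 109 bases and a PU.1 match 55 bases before the start site. The Fcgr4 window held an ISRE match at 73 bases and a PU.1 match at 22 bases before the start site. Fcrls held a PU.1 match 144 bases before the start site, and Fcgr3 held one in both of its windows. The Fcgr2b, Fcer1g and Fcgrt windows held none of these letters. The absence of a match says only that these letters do not occur in the window.

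The genes with the most similar profile over the 6 libraries were found by the root mean square difference of centred log2 CPM among 9298 genes with a mean of at least 10 CPM. For Fcgr2b they were Smpd5 (0.0465), the cytokine gene Tnf (0.0740) and the protease gene Plau (0.0778). For Fcgr1 they were the transglutaminase gene Tgm2 (0.0304), Gab2 (0.0313) and the lysozyme gene Lyz2 (0.0330), and for Fcgr4 they were Frrs1 (0.0807), 4930581F22Rik (0.117) and Espl1 (0.119). For Fcrls they were Tpm3-rs7 (0.0481), the integrin gene Itgax (0.0622) and Ttr (0.0724), the transthyretin gene that choroid plexus expresses at a high level. The genes that did not pass resembled Rfng, Tns2 and Sgf29 (Fcgr3), Ikbkb, Tpra1 and Nrp2 (Fcer1g), and Smarca4, Tacc1 and Myh9 (Fcgrt). These profiles rest on 6 libraries that share 2 strains.

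The libraries held 45481609 to 49846634 counts. Those of MRL/lpr and MRL/mpj differed in 2 further respects that the labels do not cover. The mitochondrial share of counts was 3.06% to 3.49% in MRL/lpr and 5.84% to 6.38% in MRL/mpj, and Xist had 8886 to 11319 counts against 27 to 38 counts while 4 Y-linked genes together had 8408 to 15046 counts in every library. The methods describe female mice. Strain and sex composition therefore cannot be told apart in these libraries. In MRL/lpr replicate 3, CT010467.1 took 6.38% of the counts, against 0.169% to 0.457% elsewhere. Without that library the member calls were the same, with log2 fold changes of 1.38 for Fcgr2b, 0.43 for Fcgr1, 0.77 for Fcgr4 and -1.77 for Fcrls. Markers of border macrophages, 1 of 10 higher and 2 lower (1 lower in each fit that left out 1 library), summed to 64.0 to 67.1 CPM against 61.5 to 69.7 CPM, and those of endothelium, 1 of 8 higher and 2 lower, to 1933 to 2068 CPM against 1958 to 2008 CPM, with none at 0 in every library.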

How the data were processed

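Microglial RNA-seq libraries were grouped by strain as labelled, 3 of MRL/lpr and 3 of MRL/mpj mice. Per the labels, rRNA-depleted total RNA was made into stranded libraries, and the submitters' processing notes name cutadapt 1.9.3, HISAT2 2.0.4, Cuffdiff 2.2.1 and GRCm38. The counting tool and its strand setting were not given in the sources used here. The authors deposited a matrix of raw gene counts and a table of FPKM values for each library. Each library had 1138 to 1288 genes at 4 counts against 320 to 415 at 3 counts, so counts may overstate precision, and counts divided by 4 were an alternative.

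GENCODE M21 on GRCm38 matched 55141 of 55401 identifiers. Genes were filtered with filterByExpr (minimum count 10, minimum total 15), scaled by TMM and tested with edgeR 4.0.16 (quasi-likelihood, robust, no covariate). Intervals are 95%. DESeq2 1.42.0, limma 3.58.1 on log2(FPKM + 0.1), other scalings and filters, and leaving out each library were alternatives. Ratios used exact permutation tests. The code was tested on simulated counts. Some named list genes passed an adjusted p under 0.05 and a log2 change of 1 or more, or have a defining role. Others had smaller changes or did not pass, and not every listed gene that passed both limits was named. Likeness took the 3 closest genes per member, and neighbours needed 10 counts in each library of one strain. Members and lists were chosen with earlier results of these data known. The labels give no batch, and no set test was run. Some genes are not reported here.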

Additional observations from a re-analysis of the deposited data

How the results depend on the processing

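Across 17 alternative settings, Fcgr2b (log2 fold change 1.22 to 1.42) and Fcrls (-1.89 to -1.74) kept their direction and their call. Fcgr1 (0.34 to 0.49) and Fcgr4 (0.68 to 0.96) kept their direction, Fcgr1 lost its call only in the test against an absolute log2 fold change of 1, and Fcgr4 lost it there and in 3 fits without 1 library. That test called 379 genes higher and 237 lower, against 2178 and 1772 in the main test, and 1 member higher against 3, by its construction. Scaling by library size alone called 1634 higher and 2790 lower and moved the median log2 fold change of all genes from -0.01 to -0.13. It turned the summed monocyte markers to -0.0603 on the log2 scale. Leaving out 1 library gave 1626 to 2363 genes higher and 1177 to 1971 lower (1177 without MRL/mpj replicate 1), and 2 or 3 members higher. The direction of Fcgr3 turned without MRL/lpr replicate 1 (0.02), MRL/lpr replicate 2 (0.01) and MRL/mpj replicate 3 (0.0596).

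The strain difference of the log2 ratio of Fcgr2b to the activating receptors was 1.35 with Fcgr1 left out of the sum, 0.87 with Fcgr3 left out and 0.93 from the mean of log2 values, with the libraries of the strains apart in each. That of Fcer1g was 0.18, -0.30 and -0.24 in the same order, and -0.0912 to 0.0148 when 1 library was left out. Single values near 0 were 0.00338 without MRL/lpr replicate 1, 0.0148 without MRL/mpj replicate 1 and 0.00794 without MRL/mpj replicate 2.

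The labels give no pairing of samples with the same number, and their deviations had correlations of -0.04 to -0.02. Such correlations cannot show whether these samples were prepared together. With the replicate block, 1754 genes were higher and 1309 lower, and the same 3 and 1 members were called. Tyrobp, Cd5l, Inppl1, Iglc2 and Tpsb2 lost their calls with the block.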
